A study of Arabidopsis thaliana with 29 samples.

Results

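The genes described here encode the calcineurin B-like (CBL) calcium sensors and the CBL-interacting protein kinases (CIPK, also called SnRK3) of Arabidopsis thaliana. The table held 36 of them, 26 CIPK and 10 CBL genes, among 33559 genes. They were chosen by locus identifier from the names of the 2 families, not by how they responded, and a gene was tested if it reached 1 FPKM (fragments per kilobase of transcript, scaled to the mapped fragments of the library) in at least 2 libraries. By that rule 27 were kept, 21 of the CIPK and 6 of the CBL genes, against 18521 genes of the whole table. RNA-seq libraries were made from leaves of 3-week-old soil-grown Col-0 plants, the only genotype used. Plants were sprayed with DMSO, the solvent control, or with 10 μM abscisic acid (ABA), AMF1β or AMF4. AMF1β, named AMF1 in the labels, and AMF4 are synthetic ABA receptor agonists that differ in the number of fluorine atoms on the benzyl ring of their parent compound AM1. Each of the 4 treatments had 3 libraries at 6 h, and at 24 h DMSO, ABA and AMF1β had 3 and AMF4 had 2. At 72 h DMSO and ABA had 1 library each and AMF1β and AMF4 had 2 each, which makes 29 libraries in 12 groups.

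In plant cells a stimulus such as drought, salt or low potassium raises cytosolic calcium, and a CBL protein that binds calcium docks onto the regulatory domain of a CIPK and activates it at a membrane. CBL1 and CBL9 hold their kinases at the plasma membrane, whereas CBL2 and CBL3 hold theirs at the vacuolar membrane. Targets of these modules include potassium channels, nitrate, ammonium and sodium transporters, proton pumps and NADPH oxidases. Several of the kinases also bind clade A protein phosphatases, the negative regulators that ABA receptors inhibit, which places the family beside the core ABA pathway in leaves and guard cells.

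Facts of the whole series that bear on the results were as follows. Read totals are not part of the table. Depth relative to the median library, estimated from the smallest steps between values, was 0.473 to 1.99. AMF4 6 h replicate 1 had the lowest depth and had 21835 genes at or above 1 FPKM, against 16265 to 16872 in each of the other 28. All 5 leaf markers were detected, with a summed level of 10085 to 49476 FPKM. The 5 root markers summed to at most 4.38 FPKM, in that same AMF4 6 h replicate 1, and the defining gene EXPA7 was at 0 throughout. The 4 flower markers summed to 0.31 to 1.53 FPKM. The 3 shoot meristem markers were at 0 except for 2.54 FPKM, again in AMF4 6 h replicate 1, with CLV3 at 0 in all. The ABA-responsive genes HAI1, RD29B and RAB18 summed to 31.4 to 55.3 FPKM with DMSO at 6 h and to 272 to 1051 FPKM in the 9 sprayed libraries of that time. The clock gene LHY, which peaks at dawn, read 27.9, 10.6 and 0.436 FPKM in DMSO replicates 1, 2 and 3 at 6 h and 0.433 to 0.983 FPKM in the other libraries of 6 h. DMSO replicates 1 and 2 of 6 h therefore stood apart. Where leaving both out ended a result of a CIPK or CBL gene that is named here, the value without them is given. Only replicate 3 then stands for DMSO at 6 h. The test loses power with it, so a result lost in this way does not decide whether those libraries carried it. The summed leaf markers were also lower at 6 h with ABA (20549 to 28619 FPKM) and AMF4 (10085 to 26272 FPKM) than with DMSO (28641 to 42743 FPKM), and with AMF1β (20906 to 31187 FPKM) they overlapped with DMSO. RBCS1A, at 19598 to 28257 FPKM with DMSO, made up most of the sum. With ABA, RBCS1A, CA1 and GAPA lay below DMSO, whereas LHCB1.1 and LHCB2.1 overlapped with it. With AMF4, RBCS1A, LHCB1.1 and GAPA lay below DMSO, whereas LHCB2.1 and CA1 overlapped. The part of the leaf markers in the results of 6 h was not tested.

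The CIPK genes are of 2 kinds in the RefSeq annotation of TAIR10.1, in which all 36 identifiers were matched. The coding sequence lies in 1 or 2 exons in 17 CIPK genes, and in 10 to 15 exons in the other 9, which are CIPK1, CIPK3, CIPK8, CIPK9, CIPK17, CIPK21, CIPK23, CIPK24 and CIPK26. CBL genes have 7 to 9 coding exons. Of the 4 members called against DMSO below, CIPK5, CIPK6 and CIPK25 belong to the first kind and CIPK17 to the second. The 300 bases upstream of their annotated starts are shown because abscisic acid-responsive elements have the core ACGTG and because these are the members whose transcripts separated the compounds from DMSO. The sequences are from RefSeq (TAIR10.1), on the strand of the gene, 5′ to 3′, with matches to the motifs searched in capitals. CIPK6 lies on the plus strand (chr4:15066728-15067027) and the other windows on the minus strand, CIPK25 at chr5:8659353-8659652, CIPK5 at chr5:3447279-3447578 and CIPK17 at chr1:17817442-17817741.
CIPK6: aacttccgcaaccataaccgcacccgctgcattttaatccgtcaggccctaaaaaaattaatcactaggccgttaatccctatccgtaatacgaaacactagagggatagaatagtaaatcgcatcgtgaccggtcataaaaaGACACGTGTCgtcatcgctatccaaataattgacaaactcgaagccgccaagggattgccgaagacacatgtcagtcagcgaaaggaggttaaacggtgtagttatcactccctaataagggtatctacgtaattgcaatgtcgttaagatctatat
CIPK25: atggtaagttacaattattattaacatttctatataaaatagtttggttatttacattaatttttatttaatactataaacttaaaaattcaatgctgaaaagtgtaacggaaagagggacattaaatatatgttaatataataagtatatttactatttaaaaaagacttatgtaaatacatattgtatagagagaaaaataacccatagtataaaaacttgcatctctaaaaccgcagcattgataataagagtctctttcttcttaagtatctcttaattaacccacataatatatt
CIPK5: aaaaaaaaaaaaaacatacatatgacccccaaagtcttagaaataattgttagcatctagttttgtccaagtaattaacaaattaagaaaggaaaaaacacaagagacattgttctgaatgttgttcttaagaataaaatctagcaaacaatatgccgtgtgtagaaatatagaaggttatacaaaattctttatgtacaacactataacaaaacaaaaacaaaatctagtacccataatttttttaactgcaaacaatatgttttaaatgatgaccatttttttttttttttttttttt
CIPK17: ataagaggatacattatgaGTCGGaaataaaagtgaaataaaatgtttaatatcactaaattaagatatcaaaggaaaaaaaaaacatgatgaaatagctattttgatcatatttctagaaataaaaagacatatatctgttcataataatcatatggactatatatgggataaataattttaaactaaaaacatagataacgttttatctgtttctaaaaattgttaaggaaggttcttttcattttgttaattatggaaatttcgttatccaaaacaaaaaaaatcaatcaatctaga

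The motifs searched on both strands were ACGTG, its longer forms ACGTGTC and ACGTGGC, and CCGAC, the core of the dehydration-responsive element. ACGTG stood in 25.6% of the windows of 27443 genes and in 14 of the 36 members, 10 of them kept. In the window of CIPK6 the capitals mark a palindrome, in which ACGTG and the longer form ACGTGTC read on both strands. The first match to ACGTG, on the other strand and printed as CACGT, begins 155 bases before the start. ACGTGTC occurred in 4.05% of all windows and among the members in that of CIPK6 alone. ACGTGGC, found in 3.72% of windows, occurred in 1 member, CIPK22, which was not kept. The windows of CIPK25 and CIPK5 held none of these motifs, and the capitals in that of CIPK17 mark CCGAC on the other strand. CCGAC stood in 13.9% of all windows and in 6 members, CIPK2, CIPK10, CIPK12, CIPK17, CIPK20 and CIPK21. A match describes these letters in this window and shows no binding.

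The family was unevenly expressed in leaves. FPKM is scaled to transcript length, so levels can be set side by side, and each is given as the mean of the 12 group means. CIPK6, which with CBL4 moves the potassium channel AKT2 to the plasma membrane, stood highest at 331 FPKM and ranged from 103 to 556 FPKM over the libraries. CIPK7, at 234 FPKM, ranged from 61.2 to 449 FPKM. CIPK14 (74.5 FPKM), CIPK9 (74.0 FPKM), a kinase of potassium homeostasis, CIPK12 (65.9 FPKM), CIPK20 (60.8 FPKM) and CIPK5 (59.3 FPKM) came next. Of the 27 kept members, 17 had a mean of 10 FPKM or more, 8 of 1 to 10 FPKM and 2, CBL4 and CIPK13, less than 1 FPKM. The highest-expressed sensors were those of the vacuolar membrane, CBL2 at 38.4 FPKM and CBL3 at 31.3 FPKM. CBL10, which acts in salt tolerance of shoots, was at 19.1 FPKM, and the plasma membrane sensors CBL9 and CBL1 were at 8.66 and 8.44 FPKM. The salt tolerance kinase CIPK24 (SOS2) was at 3.18 FPKM, and its root partner CBL4 (SOS3) was at 0.791 FPKM. CIPK23, the activator of AKT1 and of the nitrate transporter NPF6.3, was at 9.74 FPKM and stayed between 6.93 and 12.7 FPKM in all libraries.

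**Figure D1:**
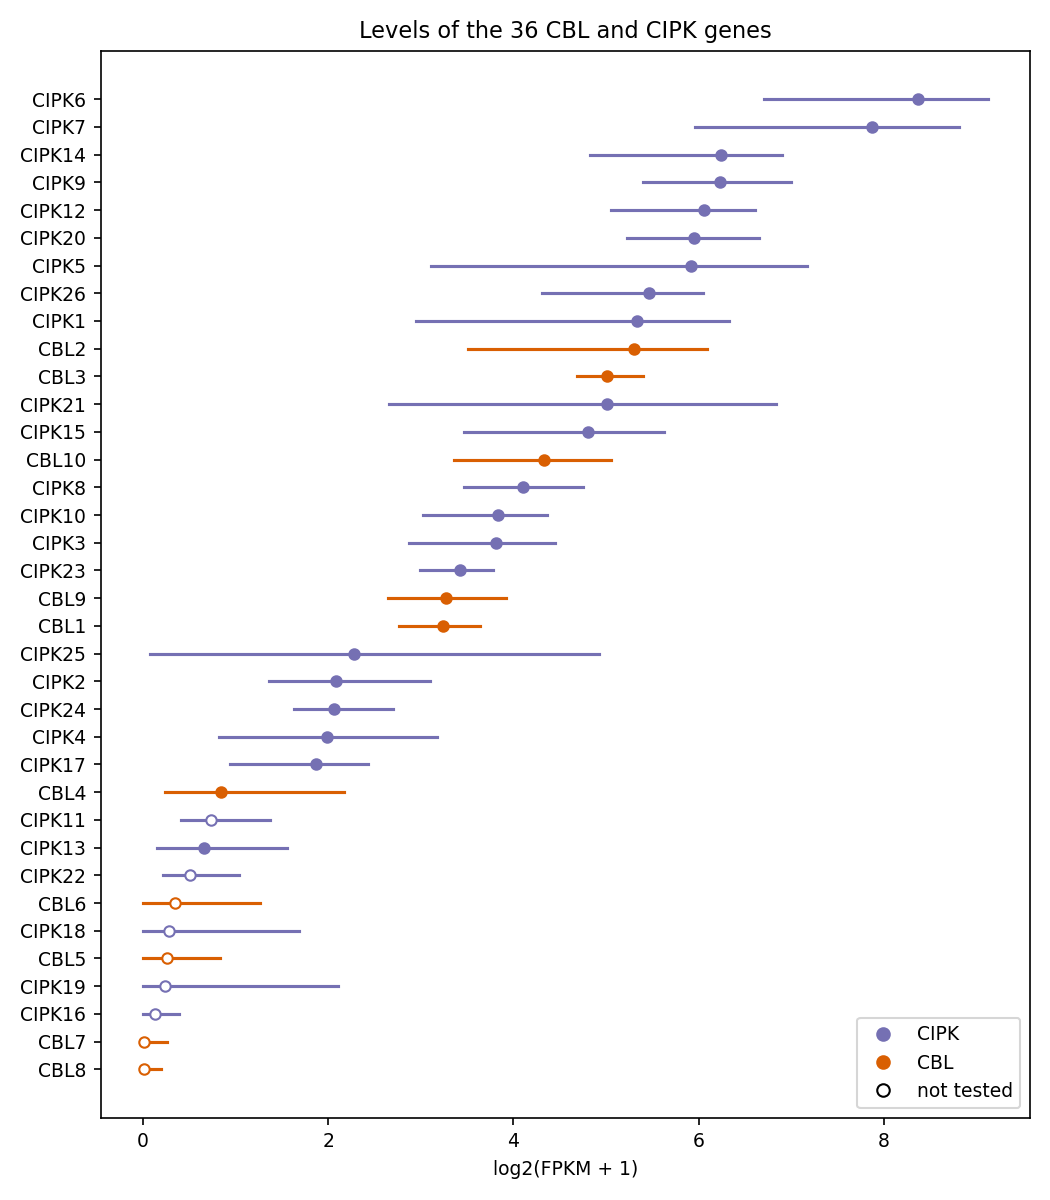
Levels of the 36 CBL and CIPK genes. The x axis is log2(FPKM + 1), each point is the mean of the 12 group means, each line runs from the lowest to the highest of the 29 libraries, and open points are the 9 genes that were not tested. CIPK6 (331 FPKM) and CIPK7 (234 FPKM) stand highest, and the line of CIPK25 runs from 0.0498 to 29.3 FPKM.

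The 9 members that were not kept are CIPK11, CIPK16, CIPK18, CIPK19, CIPK22, CBL5, CBL6, CBL7 and CBL8. CBL7 and CBL8 were listed at 0 in 28 of the 29 libraries. CIPK16 reached at most 0.305 FPKM and CBL5 at most 0.782 FPKM. CIPK18, CIPK19 and CIPK22 reached 1 FPKM in a single library, AMF4 6 h replicate 1, with 2.20, 3.31 and 1.06 FPKM. That library had the lowest depth and the most genes at or above 1 FPKM, 21835. CIPK11, also called PKS5, reached 1.58 FPKM in ABA 6 h replicate 1 and CBL6 reached 1.40 FPKM in DMSO 6 h replicate 3. Just inside the rule was CIPK13, with 1.95 FPKM in AMF4 6 h replicate 1 and 1.03 FPKM in the ABA library of 72 h. Pairs of neighbouring genes differed in level. CIPK19 and CIPK20 adjoin on chromosome 5, and CIPK20 was at 36.5 to 99.8 FPKM, while CBL3, next to CBL7 on chromosome 4, was at 24.8 to 41.1 FPKM.

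The compounds were compared with DMSO at each time by limma on log2(FPKM + 1), and a gene was called if its adjusted p was under 0.05 and its fold change on that scale above 2 or below 0.5. At 6 h CIPK25, a kinase studied in root growth, was higher with each of the 3 compounds, and CIPK6 was called with AMF4. At 24 h CIPK5 was higher and CIPK17 lower with AMF4, and at 72 h CIPK5 was higher with AMF4. With these settings no CBL gene was called against DMSO at any time. At 6 h ABA changed 1 of the 27 members against 6.96% of all genes, AMF1β 1 against 5.97% and AMF4 2 against 8.56%. At 24 h the counts were 0 with ABA against 0.724% of all genes, 0 with AMF1β against 1.84% and 2 with AMF4 against 4.48%. At 72 h they were 0 with ABA against 0% of all genes, 0 with AMF1β against 0.0108% and 1 with AMF4 against 1.55%. In the comparisons with a count of 0, 6 members had an unadjusted p under 0.05 with ABA and 4 with AMF1β at 24 h. At 72 h 1 and 2 members did. Of 18521 genes 2582 and 4084 did at 24 h, and 338 and 764 at 72 h. Over the members at 6 h the median log2 fold change was 0.20 for ABA, 0.21 for AMF1β and 0.32 for AMF4, where the medians over all genes were 0.01, 0.05 and 0.09. The 3 comparisons of a time share its DMSO libraries.

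**Figure D2:**
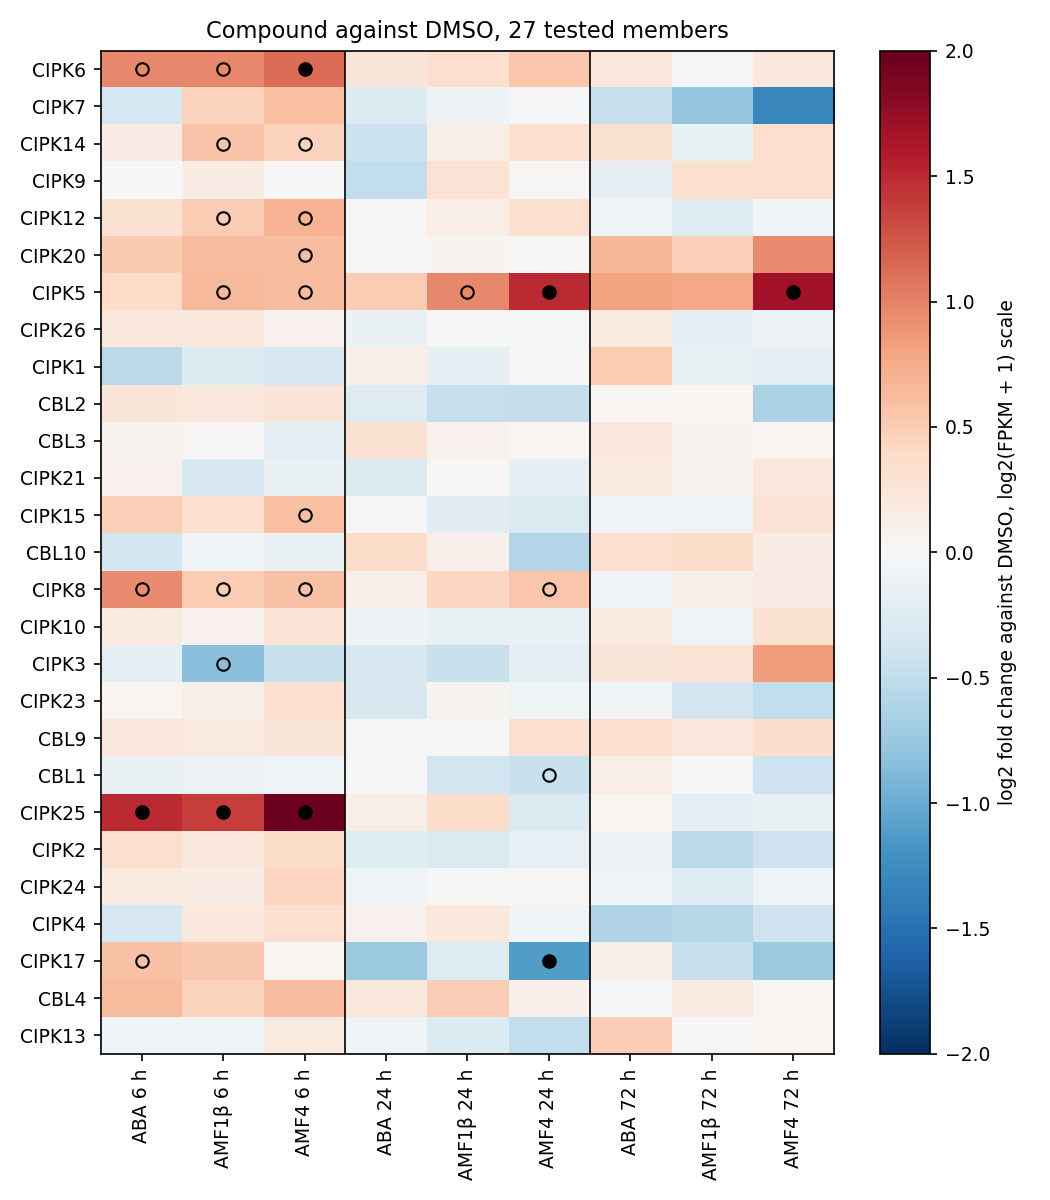
Log2 fold change against DMSO on the log2(FPKM + 1) scale for the 27 tested members (rows, ordered by level) with each compound at 6, 24 and 72 h (columns). Filled circles mark called members, open circles an adjusted p under 0.05 with a smaller fold change. CIPK25 is marked with all 3 compounds at 6 h and CIPK5 with AMF4 at 24 and 72 h.

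CIPK25 (AT5G25110) read 5.20, 3.67 and 1.63 FPKM in the DMSO libraries of 6 h. It read 16.1, 7.75 and 10.3 FPKM with ABA, 17.3, 5.67 and 9.93 FPKM with AMF1β and 9.54, 13.2 and 29.3 FPKM with AMF4. All 9 sprayed libraries lay above all 3 DMSO libraries. Its log2 fold change was 1.49 (SE 0.38, adjusted p 0.00812) with ABA, 1.38 (SE 0.38, adjusted p 0.0147) with AMF1β and 1.96 (SE 0.38, adjusted p 0.000761) with AMF4. Without DMSO replicates 1 and 2, which leaves only replicate 3 as control, these values were 2.18, 2.07 and 2.65. Without DMSO replicate 3, the lowest, they were 1.15 (adjusted p 0.0542), 1.03 (adjusted p 0.0899) and 1.62 (adjusted p 0.00659), so that only the AMF4 call held, and the calls with ABA and AMF1β were also lost without replicate 1 of the compound (1.23, adjusted p 0.0576, and 1.01, adjusted p 0.107) and in a fit of the 6 h libraries alone (adjusted p 0.0526 and 0.071). Leaving out AMF4 replicate 1 gave 2.29 with AMF4. At 24 and 72 h CIPK25 was at 0.0498 to 0.57 FPKM in 16 of 17 libraries and at 1.58 FPKM in the other, an AMF1β library of 24 h, and no compound differed from DMSO by the test.

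CIPK6 (AT4G30960) read 122, 129 and 103 FPKM with DMSO at 6 h. With ABA it read 239, 176 and 283 FPKM, with AMF1β 213, 293 and 192 FPKM and with AMF4 251, 324 and 205 FPKM. No sprayed library overlapped with DMSO at that time. The log2 fold change was 0.95 (SE 0.22, adjusted p 0.00407) with ABA, 0.96 (SE 0.22, adjusted p 0.00462) with AMF1β and 1.11 (SE 0.22, adjusted p 0.00094) with AMF4, so the fold threshold separated AMF4 from the others by a small margin. Leaving out AMF4 replicate 2 brought its value to 0.94, below that threshold, and without DMSO replicates 1 and 2 the values were 1.14, 1.14 and 1.30, all above it. At 24 h the DMSO libraries read 271, 439.5 and 323 FPKM and the AMF4 libraries 447 and 556 FPKM, a difference of 0.56 on the log2 scale (95% interval 0.05 to 1.07, adjusted p 0.175).

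CIPK5 (AT5G10930) showed little of this at 6 h and more later. At 24 h it read 41.9, 58.0 and 45.7 FPKM with DMSO, 75.7, 79.9 and 54.2 FPKM with ABA, 91.0, 99.3 and 93.3 FPKM with AMF1β and 135 and 138 FPKM with AMF4. Both AMF4 libraries lay above all others of that time, and 1 ABA library lay within the DMSO range. The log2 fold change was 0.51 (SE 0.21, adjusted p 0.273) with ABA, 0.96 (SE 0.21, adjusted p 0.0124) with AMF1β and 1.49 (SE 0.23, adjusted p 0.000452) with AMF4. At 72 h CIPK5 read 38.7 FPKM with DMSO, 68.1 FPKM with ABA, 85.1 and 52.4 FPKM with AMF1β and 112 and 143 FPKM with AMF4. Again the AMF4 libraries were the highest, and their difference from the single DMSO library was 1.68 in log2 (SE 0.32, adjusted p 0.00989), with that library assumed to vary like the other groups. Against the pooled DMSO libraries of both later times it was 1.45 (adjusted p 0.000241). At 6 h CIPK5 was at 7.62 to 14.6 FPKM with DMSO and at 12.8 to 22.2 FPKM in the sprayed libraries.

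CIPK17 (AT1G48260) was the member that fell. With DMSO at 24 h it read 3.92, 4.29 and 3.91 FPKM, and with AMF4 1.15 and 1.53 FPKM. The ABA libraries, at 2.17, 1.86 and 1.97 FPKM, also lay below all DMSO libraries, whereas AMF1β, at 3.66, 2.05 and 4.30 FPKM, overlapped with DMSO. The log2 fold change was -1.11 (SE 0.21, adjusted p 0.00232) with AMF4, -0.75 (SE 0.19, adjusted p 0.0572) with ABA and -0.25 (SE 0.19, adjusted p 0.457) with AMF1β. Without AMF4 replicate 1 it was -0.99 (adjusted p 0.0571). At 72 h CIPK17 read 3.96 FPKM with DMSO, 4.39 FPKM with ABA, 2.60 and 2.59 FPKM with AMF1β and 1.91 and 2.06 FPKM with AMF4 (log2 fold change -0.73, adjusted p 0.235). The summed level of the 4 guard cell markers at 24 h was 14.8 to 15.8 FPKM with AMF4, 17.4 to 20.2 FPKM with AMF1β, 24.0 to 30.7 FPKM with ABA and 21.6 to 47.2 FPKM with DMSO, and none of the 4 was at 0 throughout. MYB60 was at 1.58 and 1.92 FPKM with AMF4 against 7.94 to 21.8 FPKM with DMSO, and KAT1 at 5.88 and 5.36 FPKM against 6.74 to 14.9 FPKM, whereas FAMA and HT1 overlapped with DMSO. At 6 h the sum was below DMSO (27.9 to 29.5 FPKM) with AMF1β (17.2 to 25.8 FPKM) and overlapped with it with ABA and AMF4. The part of these markers in the results was not tested. In whole leaves fewer cells of a type and less RNA of these genes per cell cannot be told apart.

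**Figure D3:**
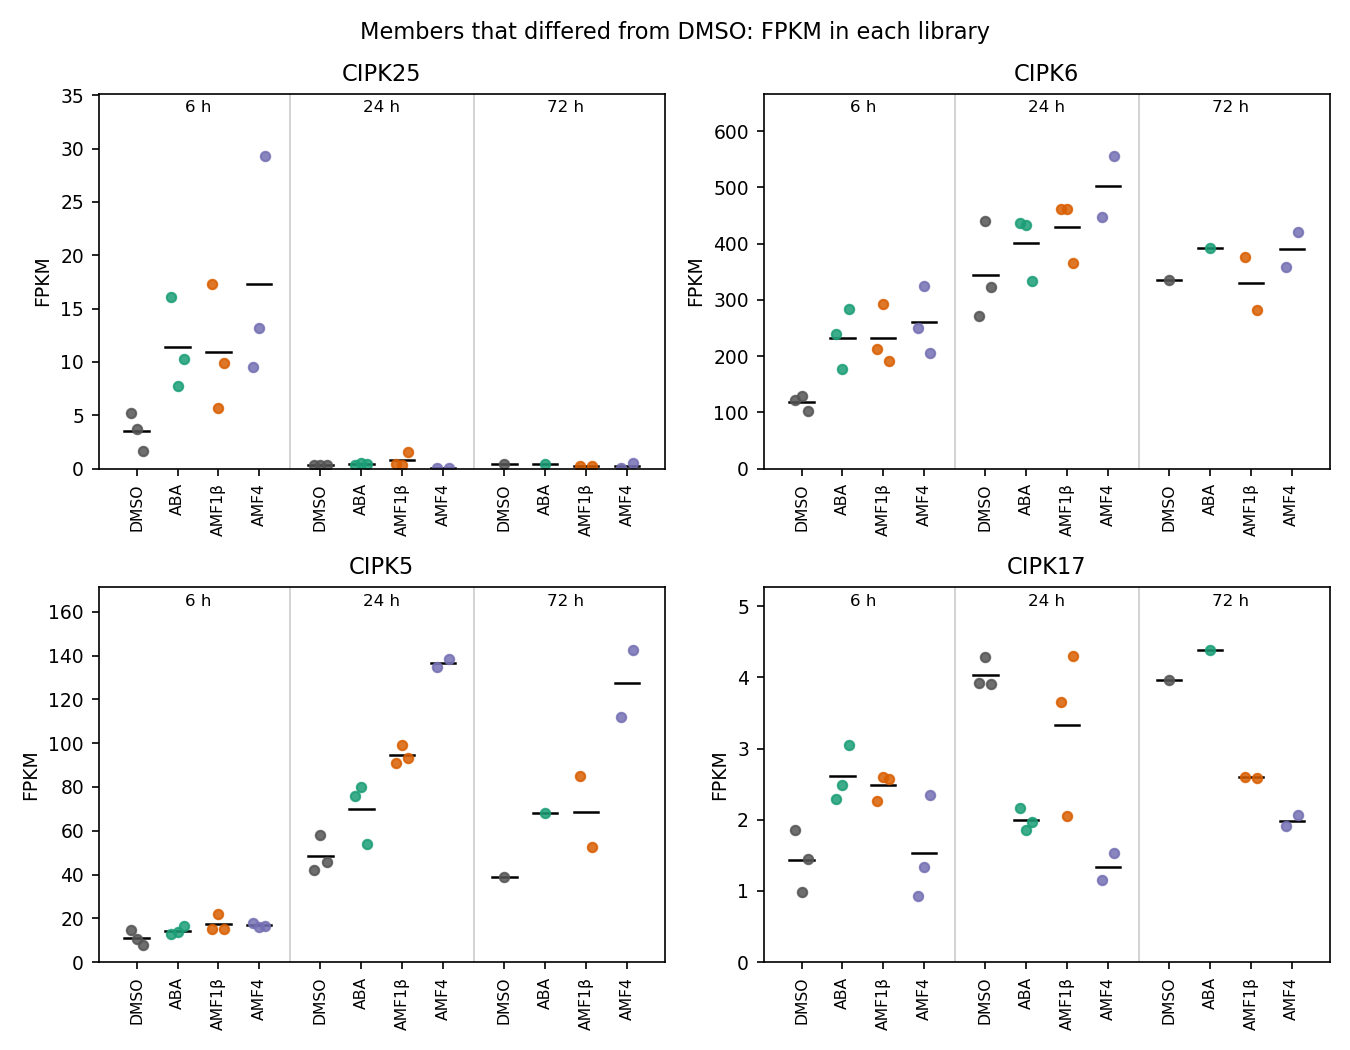
FPKM of CIPK25, CIPK6, CIPK5 and CIPK17 in each library. The y axes are linear and start at 0, points are libraries, bars are group means, and the groups are DMSO, ABA, AMF1β and AMF4 at 6, 24 and 72 h. CIPK25 is above 1 FPKM in all libraries of 6 h and in 1 later library, and CIPK5 with AMF4 at 24 h (135 and 138 FPKM) lies above every DMSO library.

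With an adjusted p under 0.05 and no fold threshold, further kinases differed from DMSO at 6 h. ABA then changed 4 of the 27 members, all higher, against 19.5% of all genes. AMF1β changed 7, of which 6 were higher, against 19.3%, and AMF4 changed 8, all higher, against 28.2%. CIPK8 (AT4G24400), a kinase of the nitrate response, was higher with all 3 compounds. It read 10.1, 11.1 and 14.1 FPKM with DMSO and 26.0, 20.3 and 24.4 FPKM with ABA, 16.8, 19.5 and 15.1 FPKM with AMF1β and 16.5, 17.6 and 20.3 FPKM with AMF4. Its log2 fold changes were 0.95 (SE 0.12), 0.51 (SE 0.12) and 0.59 (SE 0.12). Without DMSO replicates 1 and 2 those with AMF1β and AMF4 were 0.25 and 0.33 and no longer passed with 1 DMSO library left. CIPK12 (0.51 and 0.70) and CIPK14 (0.58 and 0.46) passed with AMF1β and AMF4. CIPK5 passed with both as well (0.64 and 0.62), but not without DMSO replicate 3 (0.42 and 0.40).

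CIPK15 (PKS3), which binds the phosphatase ABI2 and the sensor CBL1 in ABA signalling, passed with AMF4 at 0.60 (SE 0.20, adjusted p 0.032), and so did CIPK20 at 0.62 (SE 0.22, adjusted p 0.0371). Without DMSO replicates 1 and 2 the values were 0.56 for CIPK15 and 0.79 for CIPK20, and neither passed with 1 DMSO library left. CIPK17 passed with ABA at 0.58 (SE 0.19, adjusted p 0.0361), but not with that 1 DMSO library (0.56). CIPK3, a kinase of ABA and cold responses, was the member that was lower at 6 h, with AMF1β. It read 11.7, 13.8 and 16.3 FPKM with DMSO and 6.34, 8.27 and 7.39 FPKM with AMF1β, which do not overlap (log2 fold change -0.84, SE 0.25, adjusted p 0.0237). Without DMSO replicates 1 and 2 the value for CIPK3 was -1.06 and did not pass with 1 DMSO library left. With AMF4, at 9.71, 14.8 and 6.66 FPKM, the groups overlapped. At 24 h 1 member passed this rule with AMF1β, CIPK5, against 4.85% of all genes, and 4 passed with AMF4 against 9.04%. Those with AMF4 were CIPK5 and CIPK8 (0.55, SE 0.14), which were higher, and CIPK17 and CBL1 (-0.44, SE 0.13, adjusted p 0.032), which were lower. CBL1 read 11.2, 10.5 and 10.9 FPKM with DMSO and 7.19 and 8.33 FPKM with AMF4. Its AMF1β libraries, at 9.22, 7.47 and 7.67 FPKM, were also below DMSO, and the ABA libraries, at 10.8, 11.5 and 10.3 FPKM, overlapped. Of the 15 results that passed at 6 h without being called, counted over the compounds, 6 still passed when any 1 library was left out, namely CIPK6 with ABA and AMF1β, CIPK8 with each compound and CIPK12 with AMF4. All 3 such results of 24 h and all 6 of those between compounds, given further on, were lost without some single library.

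CIPK7 (AT3G23000), which stands second by level, read at 72 h 449 FPKM with DMSO, 327 FPKM with ABA, 273 and 252 FPKM with AMF1β and 155 and 213 FPKM with AMF4. The log2 fold change with AMF4 was -1.30 (SE 0.35, adjusted p 0.0639), which did not pass and rests on 1 DMSO library.

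AMF1β and AMF4 differ in the number of fluorine atoms on the benzyl ring, and both differ in scaffold from ABA. The 3 pairs were compared at the same dose at each of the 3 times, 9 comparisons in all, with p adjusted over all genes within each. No member was called in any of them. Of all genes, AMF1β against ABA called 0.367% at 6 h, 1.45% at 24 h and 0% at 72 h. AMF4 against ABA called 0.508%, 2.13% and 0.626%, and AMF4 against AMF1β 0%, 0% and 0.054%. At an unadjusted p under 0.05, AMF1β against ABA had 6, 7 and 0 members at the 3 times. Of 18521 genes 2075, 3568 and 611 did. AMF4 against ABA had 6, 6 and 6 members, and 3780, 2923 and 2680 of all genes. AMF4 against AMF1β had 1, 3 and 5 members, and 1357, 1175 and 2188 of all genes. For CIPK25 at 6 h, AMF4 minus AMF1β was 0.59 on the log2 scale (95% interval -0.20 to 1.38) and AMF1β minus ABA was -0.12 (95% interval -0.91 to 0.67). For CIPK6 these differences were 0.16 (95% interval -0.30 to 0.62) and 0.00143 (95% interval -0.46 to 0.46). CIPK5 was higher with AMF4 than with AMF1β by 0.53 at 24 h (95% interval 0.04 to 1.02, adjusted p 0.749) and by 0.91 at 72 h (95% interval 0.37 to 1.45, adjusted p 0.173), which did not pass after adjustment. For CIPK17 at 24 h the difference was -0.86 (95% interval -1.30 to -0.41, adjusted p 0.231).

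With an adjusted p under 0.05 alone, a few members differed between a synthetic agonist and ABA. At 6 h 1 member passed for AMF4 against ABA, where 1.57% of all genes did. It was CIPK7, which read 67.1, 61.2 and 69.3 FPKM with ABA and 100.3, 138 and 153 FPKM with AMF4 (log2 difference 0.96, SE 0.24, adjusted p 0.0451). Its DMSO libraries, at 109, 74.5 and 73.8 FPKM, lay above those of ABA and overlapped with those of AMF4. At 24 h 2 members passed for AMF1β against ABA, against 3.07% of all genes, and 3 passed for AMF4 against ABA, against 3.65%. CIPK9 read 50.3, 46.0 and 41.2 FPKM with ABA and 89.4, 71.4 and 80.1 FPKM with AMF1β (0.79, SE 0.16, adjusted p 0.0106). CIPK14 was higher than with ABA with AMF1β (0.56, SE 0.15, adjusted p 0.0427) and AMF4 (0.78, SE 0.17, adjusted p 0.0108), and CIPK5 was higher with AMF4 by 0.98 (SE 0.23, adjusted p 0.0222). CBL10 was lower with AMF4, at 9.25 and 10.7 FPKM, than with ABA, at 18.6, 19.0 and 23.3 FPKM (-0.95, SE 0.23, adjusted p 0.0218).

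The time of harvest separated more members than the compounds did by count. The comparison of 24 h with 6 h in DMSO was made first, and the same within the other treatments was added after the values were seen. Between 6 and 24 h in DMSO 11 of the 27 members were called, 8 higher and 3 lower, against 14.6% of all genes. Within ABA there were 7 against 12.8%, within AMF1β 9 against 11.3% and within AMF4 11 against 13.9%. Called in the same direction in all 4 treatments were 6 members, against 5.48% of all genes. CIPK1, CIPK5 and CIPK7 were higher at 24 h, and CIPK4, CIPK21 and CIPK25 lower. The 6 h and later libraries also differed in clock genes, with TOC1, an evening gene, at 24.2 to 50.4 FPKM at 6 h and 1.33 to 4.58 FPKM later, and LHY at 0.433 to 27.9 FPKM at 6 h and 105 to 294 FPKM later. Hours after spraying and hour of the day cannot be told apart.

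CIPK21 (AT5G57630), a kinase of the osmotic and salt response at the vacuole, differed most. It read 77.6, 85.8 and 84.8 FPKM with DMSO at 6 h and 8.26, 9.78 and 7.97 FPKM at 24 h. Over all treatments its 12 libraries of 6 h lay between 63.0 and 113 FPKM and its 17 later libraries between 5.32 and 9.95 FPKM. The log2 difference was -3.12 in DMSO, -3.49 in ABA, -2.79 in AMF1β and -3.17 in AMF4 (SE 0.17 to 0.19), and no compound differed from DMSO. CIPK1 (AT3G17510), a kinase of osmotic stress and ABA responses that pairs with CBL1 and CBL9, went the other way. In DMSO it read 18.9, 10.6 and 9.57 FPKM at 6 h and 38.8, 58.5 and 50.2 FPKM at 24 h, and its log2 difference was 1.88 in DMSO, 2.56 in ABA, 1.97 in AMF1β and 2.24 in AMF4. CIPK7 rose from 109, 74.5 and 73.8 FPKM to 293, 407 and 251 FPKM in DMSO (1.87, SE 0.24), and by 1.95, 1.30 and 1.24 on the log2 scale with ABA, AMF1β and AMF4.

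CIPK5 gave log2 differences of 2.08 in DMSO, 2.19 in ABA, 2.39 in AMF1β and 2.95 in AMF4. CIPK4 (AT4G14580), at a lower level, went from 4.37, 6.77 and 3.87 FPKM to 1.75, 1.11 and 0.766 FPKM in DMSO (-1.44, SE 0.25). Its call in ABA fell short of the fold threshold without ABA replicate 1 or 3 of 6 h or replicate 3 of 24 h (-0.95, -0.97 and -0.90). CIPK25 was lower at 24 h by log2 differences of -1.68 in DMSO, -3.05 in ABA, -2.69 in AMF1β and -3.93 in AMF4. In DMSO that call was lost without replicates 1 and 2 of 6 h (-0.99), which leaves 1 DMSO library of that time. CIPK6 (1.52), CIPK14 (1.41), CIPK15 (1.66), CIPK17 (1.07, or 0.93 without DMSO replicate 2 of 6 h) and CIPK26 (1.21), a kinase that activates the NADPH oxidase RBOHF, were also higher at 24 h in DMSO. CIPK14 and CIPK15 lie next to each other on chromosome 5. Both rose in DMSO, and CIPK15 went from a mean of 11.1 FPKM to one of 37.8 FPKM.

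**Figure D4:**
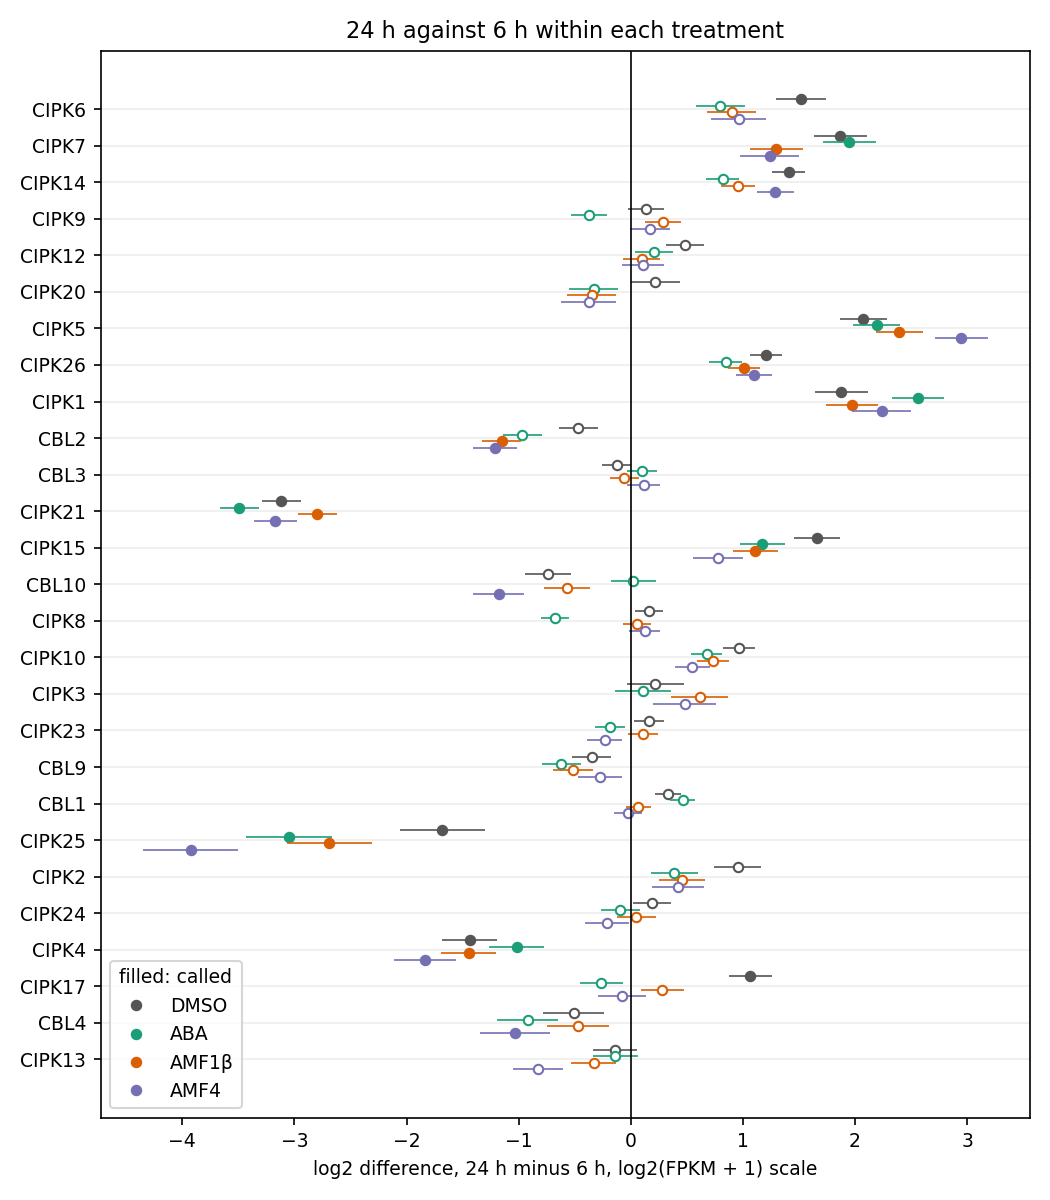
Log2 difference between 24 h and 6 h on the log2(FPKM + 1) scale for the 27 tested members within DMSO, ABA, AMF1β and AMF4. Points are estimates, bars are standard errors, and filled points are called. CIPK21 lies between -3.49 and -2.79 in the 4 treatments, and CIPK1, CIPK5 and CIPK7 are called higher in all of them.

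Among the sensors CBL2 (AT5G55990) was lower at 24 h. It read 50.8, 54.0 and 55.2 FPKM with DMSO at 6 h and 40.7, 38.6 and 35.8 FPKM at 24 h, a log2 difference of -0.47 (SE 0.18, adjusted p 0.0404). In ABA its log2 difference was -0.97 (SE 0.18, adjusted p 0.000199), just short of the fold threshold. CBL2 was called in AMF1β (-1.15, SE 0.18) and AMF4 (-1.21, SE 0.20). The change of CBL2 with time did not differ from that in DMSO by the test with any compound (adjusted p 0.0815 to 0.234). CBL10 (-1.18, SE 0.23) and CBL4 (-1.03, SE 0.31) were called in AMF4, and the call of CBL4 was lost without replicate 3 of 6 h (-0.70, adjusted p 0.0694) or either library of 24 h (adjusted p 0.095 and 0.0634). CBL3, the close relative of CBL2, stayed between 24.8 and 41.1 FPKM. The lowest value of CBL2, 10.4 FPKM, was in an AMF4 library of 72 h whose partner read 22.6 FPKM. With DMSO CBL2 read 24.5 FPKM at 72 h, so both AMF4 libraries of that time lay below the DMSO libraries of 24 and 72 h. From 24 to 72 h 0 members were called in AMF1β against 0.702% of all genes, and 0 in AMF4 against 3.68%. At an unadjusted p under 0.05 there were 4 and 5 members, and 2847 and 4324 of 18521 genes.

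**Figure D5:**
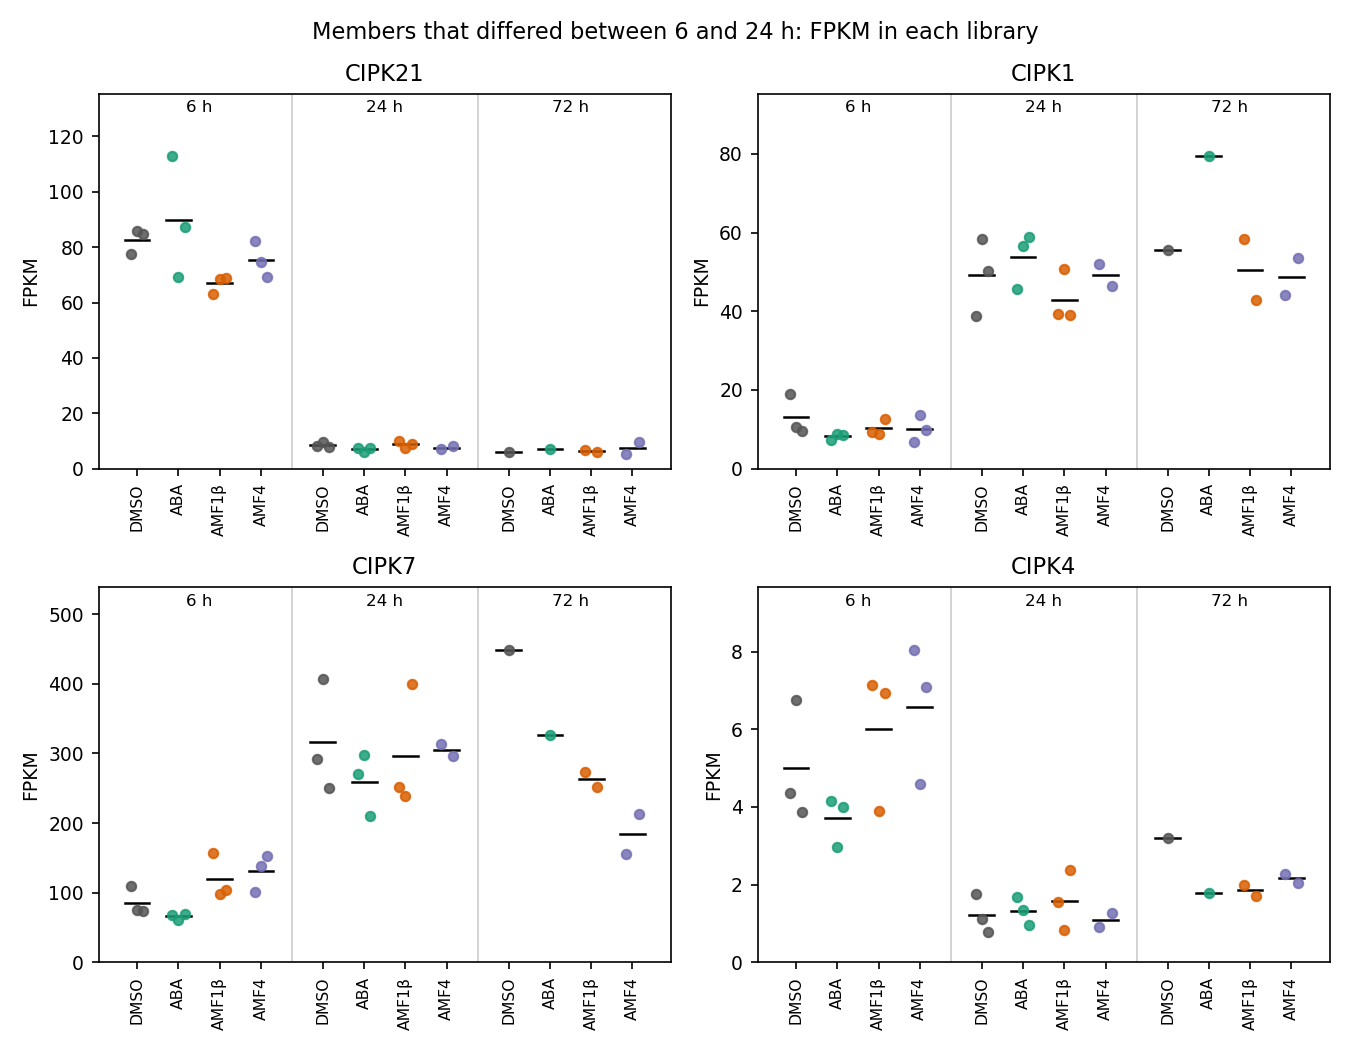
FPKM of CIPK21, CIPK1, CIPK7 and CIPK4 in each library. The y axes are linear and start at 0, points are libraries, bars are group means, and the groups are DMSO, ABA, AMF1β and AMF4 at 6, 24 and 72 h. The 12 libraries of 6 h read 63.0 to 113 FPKM of CIPK21 and the 17 later ones 5.32 to 9.95 FPKM.

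Whether the difference from DMSO itself changed from 6 to 24 h was tested as an interaction. With ABA 1 member was called against 5.25% of all genes, with AMF1β 0 against 1.24% and with AMF4 2 against 5.97%. With AMF1β 3 members had an unadjusted p under 0.05, as did 2684 of 18521 genes. CIPK17 rose in DMSO from 1.85, 0.989 and 1.45 FPKM at 6 h to 3.92, 4.29 and 3.91 FPKM at 24 h, while ABA went from 2.30, 2.49 and 3.05 FPKM to 2.17, 1.86 and 1.97 FPKM. The interaction was -1.33 (SE 0.27, adjusted p 0.00516) with ABA and -1.15 (SE 0.29, adjusted p 0.0171) with AMF4. For AMF4 it was -1.12 without DMSO replicates 1 and 2 of 6 h, and did not pass with 1 DMSO library of that time left. For CIPK25 with AMF4 the interaction was -2.24 (SE 0.57, adjusted p 0.0187), from 9.54, 13.2 and 29.3 FPKM at 6 h to 0.0802 and 0.0978 FPKM at 24 h.

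Of 25 known targets, regulators and modifiers of CBL-CIPK modules, a list chosen by role, 22 passed the filter. At 6 h ABA called 4 of them against 6.96% of all genes, AMF1β 3 against 5.97% and AMF4 6 against 8.56%. The clade A phosphatases that bind CIPK proteins were higher with all 3 compounds. ABI1 went from a mean of 48.5 FPKM with DMSO to 155 FPKM with ABA, ABI2 from 8.11 to 39.2 FPKM and PP2CA from 52.5 to 229.9 FPKM. Their log2 fold changes were 1.65, 2.15 and 2.13 with ABA, 1.37, 1.70 and 1.94 with AMF1β and 1.45, 2.22 and 2.41 with AMF4 (SE 0.19 to 0.23). ABI5, a transcription factor of the ABA response and a substrate of CIPK26, was called with AMF4 (1.21, SE 0.14) at a mean of 3.14 against 0.802 FPKM. Below the fold threshold it was also higher with ABA (0.85, SE 0.14, adjusted p 0.000224) and AMF1β (0.62, SE 0.14, adjusted p 0.0038).

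Transporters make up much of the list, and members of it went both ways. At 6 h the sodium/proton exchangers NHX1 with ABA (0.60, SE 0.15, adjusted p 0.00688) and SOS1 with AMF1β (0.50, SE 0.15, adjusted p 0.0278) and AMF4 (0.52, SE 0.15, adjusted p 0.0158) were higher, below the fold threshold. The proton pump AHA2, inhibited by CIPK11, was lower with AMF4 at 6 h (-1.15, SE 0.17) and at 24 h (-1.20, SE 0.19), where it read 37.4, 46.8 and 42.1 FPKM with DMSO and 20.3 and 15.4 FPKM with AMF4. The vacuolar calcium exchanger CAX1 was lower with AMF4 at 6 h (-1.05, SE 0.26), and the nitrate transporter NPF6.3, a target of CIPK23, was lower with AMF4 at 24 h (-1.02, SE 0.24). Below the fold threshold at 6 h, AHA2 (-0.85, adjusted p 0.00146) and CAX1 (-0.85, adjusted p 0.0288) were lower with AMF1β, and AKT1 (-0.88, adjusted p 0.0153) with ABA. By adjusted p alone at 6 h, the list had 6 higher and 2 lower with ABA, 6 and 2 with AMF1β, and 8 and 4 with AMF4. Of all genes 19.5%, 19.3% and 28.2% passed. The ammonium transporter AMT1;2 was lower with ABA at 6 h (-1.62, SE 0.48), but its DMSO libraries read 45.2, 18.3 and 4.83 FPKM, in the order of their LHY levels, and ABA read 3.16, 6.42 and 4.83 FPKM. PP2CA was higher at 24 h with AMF1β (1.27, SE 0.21) and AMF4 (1.78, SE 0.23). No other gene of the list was called against DMSO, and none was called at 72 h.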

How the data were processed

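RNA-seq was made from leaves of Col-0 plants, and 29 libraries in 12 groups of compound and time were used. Reads had been mapped to TAIR10 by TopHat, and the FPKM values deposited by the authors came from Cufflinks, for which the sources used here give no versions. Columns without an assigned sample numbered 0, and no pair of libraries held identical values. The study's methods state biological replicates in duplicate, and groups held 1 to 3 libraries. How plants were shared or pooled among them is not stated, and p-values measure the spread between the libraries.

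Values were taken as log2(FPKM + 1), and fold changes on that scale understate the change of low genes. The filter (1 FPKM in 2 libraries) left 18521 of 33559 genes, which were fitted with limma 3.58.1 in R 4.3.3, with a mean for each group, a trend in the spread and 17 residual and 3.82 prior degrees of freedom. Tests were two-sided, Benjamini-Hochberg adjustment ran over all genes of a comparison, and a call needed an adjusted p under 0.05 with a fold change above 2 or below 0.5. The fit was tested on simulated data.

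The members, the lists and the contrasts were chosen with earlier results of these data known. Members called in any comparison of compounds are given in every library, as are some others named for their level, their neighbours or their change with time, chosen after their values were seen. Promoter windows came from the reference TAIR10.1 by locus identifier, since the table holds no coordinates. Alternatives were the pseudocount, the filter, scaling, libraries in the fit, the spread model, the call rule, the 72 h control and the replicate block. Leaving out DMSO replicates 1 and 2 of 6 h was added after seeing the data.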

Additional observations from a re-analysis of the deposited data

Results flagged for a closer look

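The difference of ABA from DMSO in CIPK17 changed between 6 and 24 h by -1.33 on the log2 scale, which was flagged because the test of the difference between the 2 times passed (limma, adjusted p 0.00516). The same test gave -1.15 for AMF4 in CIPK17 (adjusted p 0.0171). For AMF4 in CIPK25 it gave -2.24 (adjusted p 0.0187). All 3 values of CIPK25 with AMF4 at 6 h lay above DMSO, and at 24 h both AMF4 libraries (0.0802 and 0.0978 FPKM) lay below DMSO.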

How the results depend on the processing

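Counts of members called were recomputed under 13 other settings for 27 comparisons, and 234 values were within 1.5 times the count reported while 32 moved. No direction reversed, and no scaling moved the median of all genes by over 0.1. With no fold change threshold the counts were 4 for ABA, 7 for AMF1β and 8 for AMF4 against DMSO at 6 h. Against DMSO at 24 h they were 1 for AMF1β and 4 for AMF4. Against ABA they were 1 for AMF4 at 6 h, and 2 for AMF1β and 3 for AMF4 at 24 h. Between 6 and 24 h they were 17 in DMSO, 16 in ABA and 14 in AMF1β, where 7053, 5661 and 5284 of 18521 genes passed. The change with ABA gave 2, where 1480 genes passed. Between 24 and 72 h AMF4 gave 2, where 1420 genes passed. Quantile normalization gave 2 for ABA and 2 for AMF1β at 6 h, 1 for AMF1β at 24 h, 2 for AMF4 at 72 h, 1 for AMF4 against ABA at 6 h and 1 for the change with AMF4. Libraries of the same time only gave 0 for ABA and 0 for AMF1β at 6 h. Without AMF4 replicate 1 and DMSO replicate 3 of 6 h the counts were 3 for ABA and 0 for AMF1β at 6 h, 1 for AMF4 against ABA at 6 h and 4 for the change with AMF4. Without DMSO replicates 1 and 2 of 6 h they were 2 for ABA and 3 for AMF1β at 6 h and 1 for the change with AMF4. AMF4 at 72 h gave 2 with median-of-ratios scaling, with p adjusted over 9 comparisons together and with the DMSO libraries of 24 and 72 h as control. With log2(FPKM + 0.1) AMF4 against ABA at 24 h gave 1. Except where only the fold threshold was dropped, the share of all genes called was not computed under these settings or with 1 library left out. A count that moved there therefore cannot be set against the whole table. Where a cause is not part of the setting itself, it was not tested.

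Leaving out 1 library at a time gave counts of 0 to 3 for ABA, 0 to 2 for AMF1β and 1 to 3 for AMF4 against DMSO at 6 h, 0 for ABA, 0 to 1 for AMF1β and 1 to 2 for AMF4 at 24 h, and 0 for AMF1β and 1 to 2 for AMF4 at 72 h. AMF4 against ABA gave 0 to 1 at 6 h, 0 to 2 at 24 h and 0 to 1 at 72 h, AMF4 against AMF1β 0, 0 to 1 and 0 to 1, and AMF1β against ABA 0 at each time. Between 6 and 24 h the counts were 10 to 13 in DMSO, 6 to 8 in ABA, 8 to 10 in AMF1β and 10 to 12 in AMF4, and between 24 and 72 h 0 in AMF1β and 0 to 1 in AMF4. For the change from 6 to 24 h they were 1 with ABA, 0 with AMF1β and 0 to 3 with AMF4. Both calls of that change with AMF4 rest on single libraries. For CIPK25 it did not pass without AMF4 replicate 1 (adjusted p 0.0819) or 2 (0.0681) of 24 h, and for CIPK17 without AMF4 replicate 3 of 6 h (-0.93, below the fold threshold) or replicate 1 of 24 h (adjusted p 0.107). ABA against DMSO at 72 h has 1 library a side, and none could be left out.

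Replicate numbers did not pair the libraries: of 33 pairs with the same number 9 had a correlation of deviations over 0.1 (range -0.253 to 0.243). In 10 of the 33 pairs the best match of the first library in the other group had the same number. With the replicate number as a block the counts were 1, 1 and 2 for ABA, AMF1β and AMF4 against DMSO at 6 h, 0, 0 and 2 at 24 h and 0, 0 and 1 at 72 h, and 10 in AMF4 between 6 and 24 h, where CBL4 (-0.90) was lost. FPKM values without read totals give no counting error, and members near 1 FPKM are the least precise.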
